A study of Mus musculus with 6 samples.

Results

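The kinesins are the motor proteins, encoded by Kif and Kifc genes, that move along microtubules with energy from ATP. Every gene name on the array that begins with Kif or Kifc followed by a digit was taken, which gave 44 of the 37074 gene names and 104 probes. Of these names 41 are motor genes. The other 3 are Kif1bp, a kinesin-binding protein, the pseudogene Kif4-ps and the antisense transcript Kif16bos. The motor genes were placed by role into 13 mitotic kinesins, 17 transport kinesins and 11 kinesins of cilia and microtubule regulation. Earlier results of these data were known when this was done. Roles overlap, and Kif2a and Kif2b, which also act in mitosis, were placed in the third set. A probe was tested if the scanner marked it well above background on 3 or more of the 6 arrays, and 27 of the 41 motor genes had such a probe: 7 mitotic, 14 transport and 6 of the third set.

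Mitotic kinesins build and move the spindle. They slide its microtubules apart, shorten microtubule ends, carry chromosome arms and organise the midzone where the cell divides, and most are made chiefly in dividing cells. Transport kinesins carry vesicles, mitochondria and other cargo through cells that do not divide, such as the adult hepatocyte, and the heterotrimeric kinesin of Kif3a and Kif3b also builds cilia. Many genes of late cell cycle carry a cell cycle genes homology region (CHR) and a CCAAT box close to their start.

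The study asked how vesicles released by a colorectal cancer cell line change the liver. Purified small extracellular vesicles (sEVs) of SW620 cells, a human line from a lymph node metastasis of colorectal cancer, were injected into the tail vein of nude mice, which lack a thymus and most T cells. The treated mice, here the sEV group, received 20 µg per injection and 10 injections over 21 days, and the control mice received sterile PBS as often. The groups held 5 mice each, 3 livers per group were arrayed, and the 3 of the sEV group are stated to have been picked at random. Strain and tissue were given as nude and liver for all 6 samples, and neither age nor sex was used here. The control injections held no vesicles, so a response to sEVs of any origin and one to those of SW620 cells cannot be told apart.

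Each liver gave total RNA for 1 one-colour array. Between 49.9% and 54.7% of the spots outside the controls were well above background on each array, and 0 were saturated. The hepatocyte genes Alb, Apoa1 and Ttr read between 7.89 and 10.4 on every array, on the scale given next, and did not pass the test, with log2 differences of 0.15, -0.23 and 0.16. Values below are normalized log2 signals, in which 0 is the array's 75th percentile and 1 unit is a doubling. Differences are sEV minus control, with the standard error of the limma fit and 3 livers per group, and calls are those with a Benjamini-Hochberg adjusted p under 0.05 over all 19447 genes tested. Of those genes 17.0% were called, 7.95% lower and 9.08% higher in the sEV livers, and the median log2 difference of all genes was 0.027. All arrays lay on 1 slide, with the 3 controls and sEV liver 1 in the first row and sEV livers 2 and 3 in the second.

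The promoters of mitotic kinesins are shown first, because most of them share letters that the choice of genes did not use. Of the mitotic genes printed, Kif22, Kif11, Kif4 and Kif20b fell, Kif23 did not pass by its brightest probe and Kif18b was too dim to test. The sequences come from RefSeq (GRCm38.p6) and run from 110 bases before to 30 bases after the annotated start. Capitals mark CHR letters, TTTGAA or TTCAAA on the other strand, and CCAAT boxes, CCAAT or ATTGG on the other strand. The promoters of Kif3a and Kif3b, which together form a transport motor, stand beside them.
Kif22 promoter, chr7:127042391-127042530, minus strand: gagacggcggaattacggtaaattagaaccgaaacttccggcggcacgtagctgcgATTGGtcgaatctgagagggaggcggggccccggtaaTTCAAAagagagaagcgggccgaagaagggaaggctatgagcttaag
Kif11 promoter, chr19:37376272-37376411, plus strand: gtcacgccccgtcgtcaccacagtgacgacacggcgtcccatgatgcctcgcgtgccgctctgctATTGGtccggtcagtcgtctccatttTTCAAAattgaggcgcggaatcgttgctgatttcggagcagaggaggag
Kif4 promoter, chrX:100625955-100626094, plus strand: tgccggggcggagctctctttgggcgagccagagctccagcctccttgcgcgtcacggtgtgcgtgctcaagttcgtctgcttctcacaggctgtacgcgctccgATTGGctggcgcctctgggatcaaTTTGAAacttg
Kif23 promoter, chr9:61946770-61946909, minus strand: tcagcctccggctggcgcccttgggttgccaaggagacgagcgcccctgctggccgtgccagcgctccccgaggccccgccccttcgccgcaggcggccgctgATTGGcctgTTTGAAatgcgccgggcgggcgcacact
Kif18b promoter, chr11:102925095-102925234, minus strand: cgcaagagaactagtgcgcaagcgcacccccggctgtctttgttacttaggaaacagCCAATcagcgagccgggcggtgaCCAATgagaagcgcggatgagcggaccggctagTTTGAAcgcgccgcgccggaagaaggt
Kif20b promoter, chr19:34922248-34922387, plus strand: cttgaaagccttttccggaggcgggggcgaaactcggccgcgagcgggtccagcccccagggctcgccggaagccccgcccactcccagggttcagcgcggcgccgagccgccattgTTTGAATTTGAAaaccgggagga
Kif3a promoter, chr11:53567259-53567398, plus strand: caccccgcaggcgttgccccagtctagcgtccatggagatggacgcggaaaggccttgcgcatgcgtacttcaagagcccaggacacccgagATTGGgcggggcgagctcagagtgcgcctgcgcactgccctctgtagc
Kif3b promoter, chr2:153291306-153291445, plus strand: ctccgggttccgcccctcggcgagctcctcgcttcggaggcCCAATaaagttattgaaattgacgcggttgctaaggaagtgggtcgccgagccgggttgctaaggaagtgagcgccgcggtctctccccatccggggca
Kif20b carries the CHR letters as a direct repeat just after its start. In Kif22, Kif11, Kif4, Kif23 and Kif18b a CCAAT box lies upstream of the CHR letters. Kif2c, which also fell, is not printed. Its only CHR letters lie at -103 from the start, and no CCAAT box was found in its promoter.

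Of 44 names, 43 matched a RefSeq symbol and 34 had a promoter in the table. Over the whole window of 250 bases before to 50 after the start, TTTGAA on either strand was found in 11 of the 12 mitotic kinesins with a promoter, against 17.9% of all 32851 promoters. Kif18a was the member without it, and Kif20a had no entry. Among transport kinesins 1 of 11 genes, Kif1a, held the letters, and among the kinesins of cilia and microtubule regulation 2 of 10 did, Kif26b and Kif27. Within the printed stretch the letters were found in 9 of the 12 mitotic promoters and in 7.77% of all promoters. CCAAT on either strand was found in 8 of 12 mitotic promoters against 37.4% of all, and both sets of letters in 8 of 12 against 6.95%. Of the genes with both, Kif22, Kif11 and Kif4 fell and Kif23 did not pass by its brightest probe. The others, Kif14, Kif18b, Kifc1 and Kifc5b, were too dim to test. The motifs were counted each on its own, so a match could overlap another. Kifc1 and Kifc5b are near-identical copies and share most of their promoter. These are counts of letters and not of bound sites, and they were not tested.

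Mitotic kinesins were lower in the sEV livers. Of the 7 that were tested, 6 fell and 0 rose, against 7.95% and 9.08% of all genes. The 6 were Kif20a, Kif4, Kif2c, Kif20b, Kif22 and Kif11. Kif2a, placed in the third set, is not among the 7 and differed by -0.031 on the log2 scale. Log2 differences of the 7 ran from -4.10 to 0.48 with a median of -2.77, or -1.99 with Kif4 and Kif2c set at their bounds. The latter is the value of Kif11, which was itself above background on 1 of 3 sEV arrays. Kif4 and Kif2c passed the filter through the control arrays alone, so the count and the median describe the tested genes and not the whole set. In bulk liver RNA, fewer cells that carry a transcript and less of it per cell cannot be told apart.

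**Figure D1:**
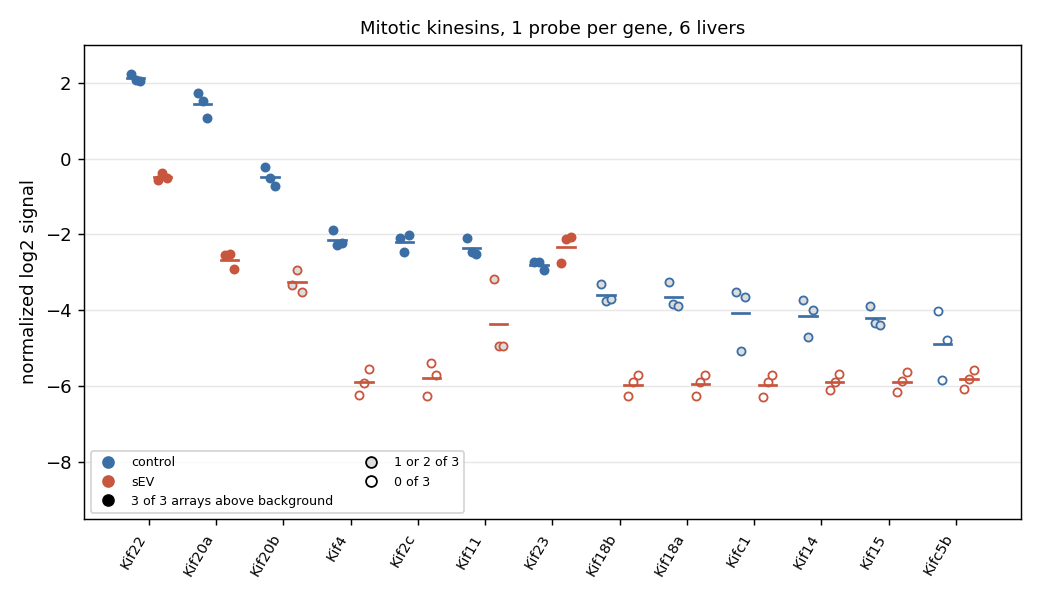
Normalized log2 signal (y axis) of the 13 mitotic kinesins, 1 probe per gene, in 3 control livers (blue) and 3 sEV livers (red); bars are group means, and the fill of the points shows on how many arrays of the group the probe was well above background. Of the 13 genes, 11 have every sEV liver below every control liver; over all gene names this share is 10.3%, and levels of different genes are not comparable.

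Kif22, a chromokinesin that pushes chromosome arms toward the spindle equator, was measured above background in every liver. Its values were 2.23, 2.06 and 2.04 in the controls and -0.57, -0.38 and -0.51 in the sEV livers. The groups were far apart and each was tight, with a log2 difference of -2.60 ± 0.10 or 6.05-fold lower (limma, adjusted p = 0.000139).

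Kif20a, which carries the chromosomal passenger complex to the midzone in late mitosis, was likewise measured in every liver. The control livers read 1.74, 1.51 and 1.06, and the sEV livers -2.54, -2.53 and -2.92. No sEV value came near a control value, and the probe was above background on all 6 arrays. The log2 difference was -4.10 ± 0.20, or 17.1-fold lower (limma, adjusted p = 0.00029).

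Kif20b, a midzone kinesin needed for the completion of cell division, has 2 tested probes. By the brighter it read -0.22, -0.51 and -0.72 in controls against -3.33, -2.92 and -3.53 in sEV livers, where it was above background on 2 of 3 arrays. That probe fell by 2.77 on the log2 scale (SE 0.19, limma adjusted p = 0.000944). The second probe lies across an exon junction upstream and read -2.87, -3.01 and -2.95 against -5.32, -5.74 and -4.92. It differed by -2.38, and it was above background on no sEV array, so it was at least 1.62-fold lower. Both probes placed every sEV liver below every control.

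Kif4, a chromokinesin that limits the length of midzone microtubules, and Kif2c, which shortens microtubule ends at centromeres, were above background on all 3 control arrays and on 0 sEV arrays. Of all genes tested, 0.951% showed that pattern. Kif4 read -1.88, -2.29 and -2.23 in the controls and -6.22, -5.90 and -5.55 in the sEV livers. Kif2c read -2.10, -2.46 and -2.02 against -6.25, -5.38 and -5.70. Both were too dim on every sEV array for a level to be given, so only a bound holds: Kif4 was at least 2.85-fold lower and Kif2c at least 2.73-fold lower. The bound sets the control mean against the lowest signal well above background on each sEV array, or the probe's own signal where that is higher. The fitted log2 differences were -3.76 ± 0.20 and -3.59 ± 0.24 (limma, adjusted p = 0.000335 and 0.000805). Since the sEV readings lay below detection, these standard errors and p values do not measure the spread of expression in the sEV livers.

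Kif11, the plus-end motor that pushes the spindle poles apart, was the least uniform. Its controls read -2.08, -2.47 and -2.52. The sEV livers read -3.17, -4.95 and -4.93, and the probe was above background on 1 of the 3 arrays. Liver 1 of the sEV group lay closer to the controls than to the other sEV livers, although it was still below every control. The fitted difference was -1.99 ± 0.48 (limma, adjusted p = 0.0383). The call did not hold with other sets of livers: adjusted p was between 0.0883 and 0.12 without control 1, 2 or 3 or without sEV liver 2 or 3, and 0.00224 without sEV liver 1. Within the first slide row sEV liver 1 is the only treated sample, and its difference from the 3 controls was -0.82. The limma fit there takes its spread from the controls and assumes that the lone liver varies like them (adjusted p = 0.13).

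Kif23, the motor subunit of centralspindlin, was the 1 tested mitotic kinesin that did not pass, and here the probes disagreed. The brightest of its 3 tested probes, by the mean over all 6 arrays, was designed on the cDNA clone AK076271. It read -2.72, -2.74 and -2.94 in controls against -2.76, -2.13 and -2.07 in sEV livers. The groups overlapped, with a log2 difference of 0.48 ± 0.20 (limma, adjusted p = 0.143), which passed at 0.70 with an adjusted p of 0.0201 without sEV liver 1. The other probes were designed on the RefSeq mRNA NM_024245, and both gave a fall. A_52_P27602 read -1.92, -2.19 and -2.36 in controls and -4.20, -3.97 and -4.07 in sEV livers, at least 2.80-fold lower. It was brighter than the clone probe on every control array, and its low sEV readings lowered the mean by which probes were ranked. A_55_P2727699 read -2.91, -3.15 and -3.59 against -5.56, -4.94 and -4.87, at least 1.34-fold lower. Each was above background on 3 control and 0 sEV arrays. With each probe tested on its own, where 6.50% of 28766 probes were lower, their adjusted p values were 0.001 and 0.0078 (limma). The clone probe maps between the RefSeq probes on the genome, at chr9:61770729-61770788 of mm9, the mouse build on which the array design rests.

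Some of the 60-base probes behind these readings are printed here. They are the RefSeq probes of Kif23, where the choice of probe decides the result, and a probe each of Kif2c, Kif20b and Kif3a. The brightest probes of Kif23 and Kif20b are not printed. Positions are those of the array design in mm9, and a span longer than 60 bases crosses an intron.
Kif23 probe A_52_P27602, chr9:61767733-61768853, minus strand: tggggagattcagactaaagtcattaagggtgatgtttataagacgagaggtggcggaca
Kif23 probe A_55_P2727699, chr9:61774902-61774961, minus strand: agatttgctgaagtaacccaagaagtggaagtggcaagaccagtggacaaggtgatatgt
Kif2c probe A_55_P2100209, chr4:116832904-116832963, minus strand: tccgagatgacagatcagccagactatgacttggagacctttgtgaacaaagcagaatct
Kif20b probe A_51_P205242, chr19:35017012-35022112, plus strand: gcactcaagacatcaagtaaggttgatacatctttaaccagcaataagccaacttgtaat
Kif3a probe A_55_P1978441, chr11:53397887-53397946, plus strand: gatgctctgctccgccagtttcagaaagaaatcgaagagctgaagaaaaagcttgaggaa
The more downstream Kif23 probe and the Kif20b probe each join 2 exons, so they read spliced transcripts. The upstream Kif23 probe and the probes of Kif2c and Kif3a map to 60 contiguous bases.

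**Figure D2:**
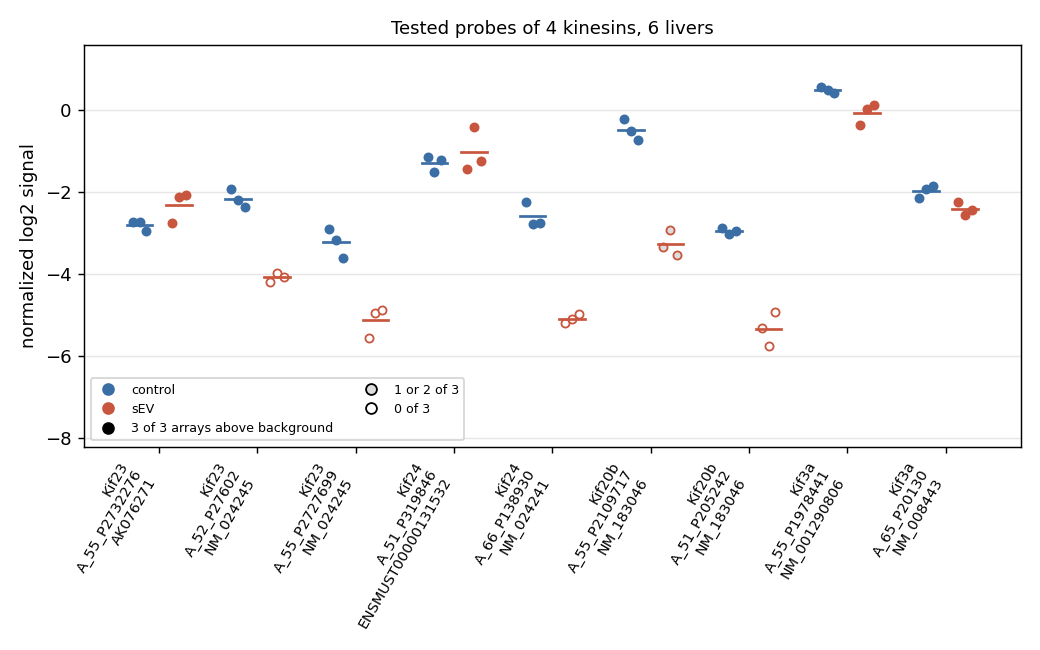
Normalized log2 signal (y axis) of each tested probe of Kif23, Kif24, Kif20b and Kif3a (x axis: gene, probe and design accession) in 3 control (blue) and 3 sEV (red) livers; bars are means and the fill shows detection. The RefSeq probes of Kif23 and Kif24 have every sEV liver below every control and on no sEV array above background, while the other probe of each has overlapping groups.

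The 6 mitotic kinesins that were not tested were dim, and their dim readings leaned the same way. Kif14, Kif18a, Kif18b and Kifc1 were above background on 2 control arrays and 0 sEV arrays each, and Kif15 on 1 control array and 0 sEV arrays. Kif14 is a midbody kinesin, Kif15 backs up Kif11 in spindle assembly, Kif18a and Kif18b restrain microtubule plus ends and Kifc1 is a minus-end motor that focuses spindle poles. Control readings of these 5 genes ran from -5.08 to -3.26 and sEV readings from -6.27 to -5.62. The ranges did not overlap, and no fold is given because the control readings lay at or near the lowest detectable signal. Kifc5b was above background on 0 arrays, and its 1 probe cannot be separated with certainty from Kifc1, its near-identical copy. Over all 13 genes, 30 of 39 control readings and 12 of 39 sEV readings were above background. Of the 13, 9 were detected on fewer sEV than control arrays, against 6.58% of all gene names, and 0 on more, against 3.71%. Without the filter, 9 of 13 were called lower against 1.31% of 37074 gene names. Those 9 were Kif20a, Kif4, Kif2c, Kif20b, Kif22, Kif18b, Kif18a, Kif14 and Kif15. Of these, all but Kif20a, Kif20b and Kif22 were above background on 0 sEV arrays. For Kif18b, Kif18a, Kif14 and Kif15 the control readings were dim too, so their calls do not measure a fall.

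The size of the falls depended on the background correction. With the normexp method in place of the scanner's processed signal, 6 of 7 were again lower, against 9.50% of all genes. This method was run with an offset of 50 added to every signal, which makes log2 differences of dim probes smaller. Kif4 then differed by -0.86, Kif2c by -0.81, Kif20b by -1.43, Kif11 by -0.44, Kif20a by -2.88 and Kif22 by -2.27. The second slide row holds sEV livers only, so a fit with the slide row and a fit within the first row both set sEV liver 1 alone against the 3 controls and give the same differences. The former called 5 of 7 lower against 2.39% of all genes, with the spread of the controls and of sEV livers 2 and 3, and the latter 5 of 7 against 2.16%, with that of the controls alone. Kif11 was the one lost in both, and these are a single estimate from 1 treated liver.

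Transport kinesins showed no such fall. Of 14 tested, 1 fell, 0 rose and the other 13 missed the threshold, where 7.95% and 9.08% of all genes fell and rose; a count of 1 is near that share. Log2 differences ran from -0.56 to 0.48 and a median of 0.13. All 14 were above background on every array, so these are measured levels on both sides. Every sEV liver was higher than every control for 5 of the 14, against 22.9% of all genes, and lower for 1, against 18.0%.

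**Figure D3:**
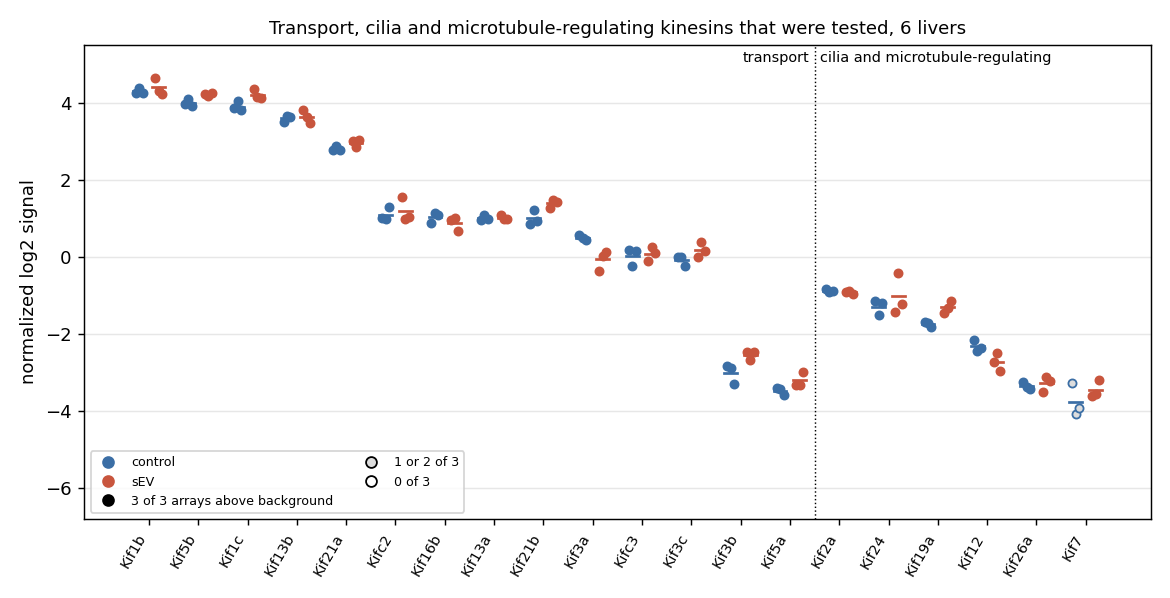
Normalized log2 signal (y axis) of the 14 tested transport kinesins and the 6 tested kinesins of cilia and microtubule regulation (x axis, split by the dotted line) in 3 control (blue) and 3 sEV (red) livers; bars are means. The group means of every gene but Kif3a lie within 0.5 units of each other; Kif3a is the called transport kinesin, at 0.49 in controls and -0.068 in sEV livers.

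Kif3a, a motor subunit of heterotrimeric kinesin, read 0.56, 0.50 and 0.43 in controls and -0.36, 0.023 and 0.14 in sEV livers. The sEV livers were all lower, liver 1 the most. The log2 difference was -0.56 ± 0.14, or 1.48-fold lower (limma, adjusted p = 0.0436). Its second probe, near the end of the transcript, differed by -0.45 with an adjusted p of 0.0618 (limma). The call was lost without control 1, 2 or 3 and without sEV liver 2 or 3, where adjusted p ran from 0.0521 to 0.126.

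Kif3b, its usual partner subunit, had the highest difference in the set. It read -2.84, -2.89 and -3.31 in controls against -2.46, -2.67 and -2.46 in sEV livers. The sEV livers were all above the controls, yet the difference of 0.48 ± 0.15 did not pass (limma, adjusted p = 0.0753). Kif3c, the alternative partner of Kif3a, differed by 0.25 and its groups overlapped. Kifap3, the non-motor subunit of the same complex, differed by -0.053 (limma, adjusted p = 0.779).

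The conventional kinesin heavy chains, which carry vesicles and mitochondria with kinesin light chains, did not pass. Kif5b, the form found in most tissues, read 3.96, 4.08 and 3.92 in controls and 4.21, 4.16 and 4.26 in sEV livers, a difference of 0.22 ± 0.08 (limma, adjusted p = 0.117). Its 3 tested probes gave 0.22, 0.19 and 0.19. The neuronal Kif5a differed by 0.27, and Kif5c was above background on 1 control array only.

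In the kinesin-3 family, which moves vesicles at high speed, Kif1c was higher in all sEV livers at 0.31 ± 0.11 but did not pass (limma, adjusted p = 0.0996). Kif1b gave 0.11 ± 0.13 by its brightest probe. Of its other 4 probes, A_55_P2741243 was higher at 0.38 (limma over probes, adjusted p = 0.0267) and A_65_P12993 gave -0.33 (adjusted p = 0.149). Kif13b likewise gave 0.038 by its brightest probe and 0.46 by its RefSeq probe (limma over probes, adjusted p = 0.0347). Kif13a and Kif16b, an endosome motor, gave 0.014 and -0.15. Kif21a and Kif21b, which pause microtubule growth, gave 0.15 and 0.39, and Kifc2 and Kifc3, minus-end motors, 0.095 and 0.053, and none of these 6 genes passed. Kif1a and Kif17, motors of neurons, were above background on 0 arrays.

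Among the kinesins of cilia and microtubule regulation, 1 of 6 tested rose, 0 fell and 5 missed the threshold, against 9.08% and 7.95% of all genes that rose and fell, and the median log2 difference was 0.17. Kif19a, which shortens motile cilia, read -1.68, -1.72 and -1.81 in controls and -1.45, -1.33 and -1.15 in sEV livers. All sEV livers were higher, by 0.43 ± 0.10 (limma, adjusted p = 0.0375), and the call was lost in a fit with the slide row (0.29, adjusted p = 0.262), with median scaling (0.35, adjusted p = 0.0667) and without control 1, 2 or 3 or sEV liver 2 or 3. Kif12, a kinesin of bile duct and kidney epithelium, read -2.16, -2.45 and -2.36 against -2.72, -2.49 and -2.96. It was lower in all sEV livers by -0.40 ± 0.14 but did not pass (limma, adjusted p = 0.109). Kif2a, a microtubule depolymerase of the same family as Kif2c, differed by -0.031 ± 0.074 (limma, adjusted p = 0.801), with all 6 readings between -0.96 and -0.84. Kif7, a regulator of Hedgehog signalling, and Kif26a, which lacks motor activity, differed by 0.30 and 0.077 and did not pass. Kif6, Kif9, Kif26b, Kif27 and Kif2b were too dim to test.

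Kif24, which restrains cilium formation from the centriole in cycling cells, repeated the split between probes. Its brightest probe, on an Ensembl transcript, read -1.15, -1.51 and -1.20 in controls against -1.44, -0.41 and -1.23 in sEV livers. The groups overlapped, with a difference of 0.26 ± 0.27 (limma, adjusted p = 0.54). The RefSeq probe read -2.24, -2.77 and -2.74 against -5.20, -5.09 and -4.98, above background on 3 control and 0 sEV arrays. That probe was at least 2.08-fold lower (limma over probes, adjusted p = 0.0008). When genes were represented by their brightest RefSeq probe, an alternative chosen after these probes were seen to disagree, Kif23 and Kif24 were both called lower. Mitotic kinesins were then lower in 7 of 7, against 10.2% of all 13530 genes. Of these, Kif4, Kif2c and Kif23 were above background on 0 sEV arrays and so passed the filter through the control arrays alone.

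**Figure D4:**
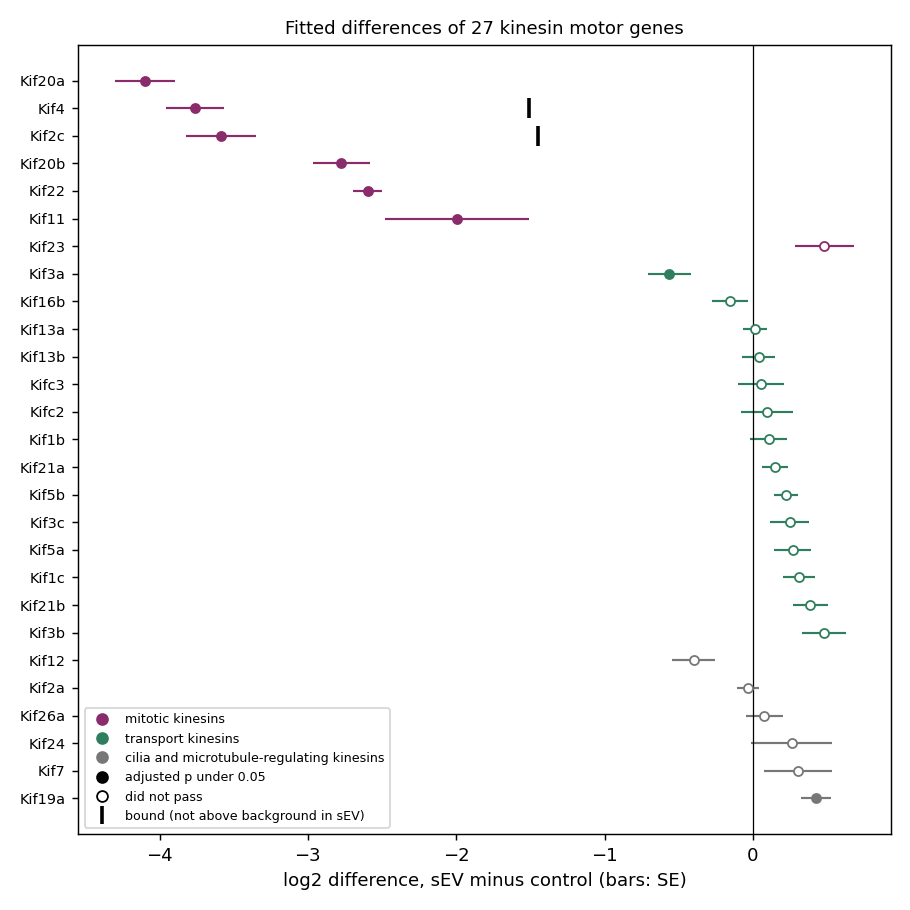
Fitted log2 differences (x axis, sEV minus control, bars are standard errors) of the 27 tested motor genes (y axis), coloured by role and filled where the adjusted p was under 0.05; black ticks are the bounds of Kif4 and Kif2c. The 6 mitotic kinesins that fell lie between -4.10 and -1.99, and every transport kinesin lies between -0.56 and 0.48.

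Counted by probe, 9 of 10 tested probes of mitotic kinesins were lower and 0 higher, against 6.50% and 7.62% of all probes. Of those 9, 5 were above background on 3 control and 0 sEV arrays and so passed the filter through the control arrays alone. Of 27 probes of transport kinesins 1 was lower, 2 were higher and 24 did not pass. Probes of 1 gene share their transcript and are not independent. Of the names that are not motors, Kif1bp differed by 0.083 ± 0.091 (limma, adjusted p = 0.561), and Kif4-ps and Kif16bos were above background on 0 arrays.

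The proteins that work with these motors were compared in lists drawn up by role, with earlier results of these data known. Of 20 partners of mitotic kinesins, 18 fell, 0 rose and 2 missed the threshold, against 7.95% and 9.08% of all genes that fell and rose. The median log2 difference was -3.42. Of the 20, 3 were above background on 0 sEV arrays and so passed the filter through the control arrays alone. With those 3 set at their bounds the median was -3.41. Birc5, of the chromosomal passenger complex, read 3.70, 3.60 and 3.50 in controls and 0.030, 0.17 and -0.24 in sEV livers, 12.2-fold lower (limma, adjusted p = 0.000139). The kinase of that complex, Aurkb, was at least 5.76-fold lower, with 0 sEV arrays above background. Racgap1, which binds Kif23 in centralspindlin, was 10.5-fold lower and the spindle protein Nusap1 11.1-fold lower. The partners that did not pass were Mapre1, a microtubule plus-end protein, at -0.024, and Numa1, a nuclear and spindle pole protein, at 0.0097.

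Of 18 tested cargo adaptors and kinesin light chains, 1 rose, 0 fell and 17 missed the threshold, against the same 9.08% and 7.95% of all genes. Their median was 0.077. The 1 that rose was Plekhm2, which links lysosomes to kinesin light chain, at 0.37 ± 0.10 (limma, adjusted p = 0.0483). Of 18 tested subunits and regulators of cytoplasmic dynein and dynactin, the minus-end transport motor, 1 fell, 0 rose and 17 missed the threshold, again no more than the share of all genes. Their median was -0.0069. The 1 that fell was the light chain Dynlt1f at -0.36 ± 0.08 (limma, adjusted p = 0.0287).

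**Figure D5:**
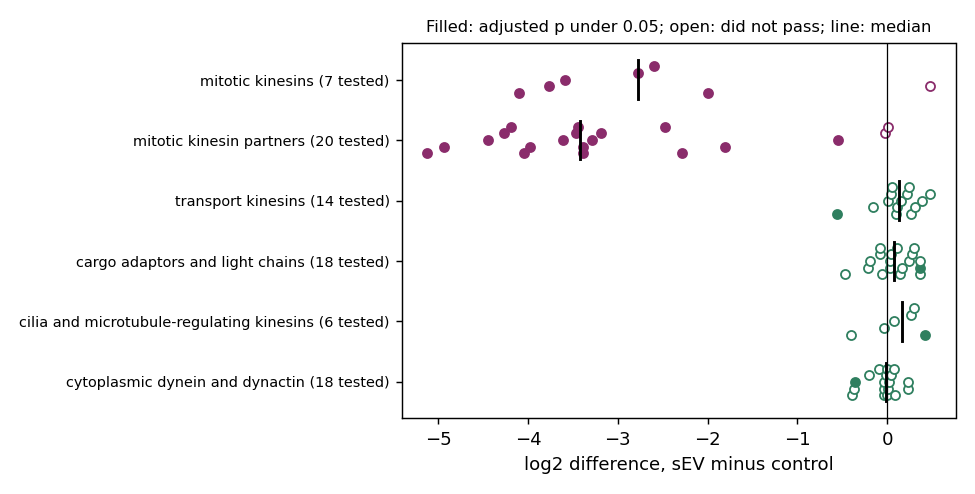
Log2 differences (x axis, sEV minus control) of each tested gene in 6 lists (y axis); filled points had an adjusted p under 0.05 and black lines are medians. Mitotic kinesins and their partners have medians of -2.77 and -3.42, and the other 4 lists have medians between -0.0069 and 0.17.

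Several cell type markers also differed, and their part in the fall of mitotic kinesins was not tested. Each count below stands against 7.95% of all genes that fell and 9.08% that rose. Of 9 tested markers of erythroid precursors, 3 fell and 1 rose. The log2 differences were -3.59 for Ahsp, a haemoglobin chaperone, -1.79 for Slc4a1, -0.50 for Klf1 and 1.05 for Hemgn. The summed signal of the 9, in multiples of the 75th percentile, was 206 to 334 in controls and 423 to 501 in sEV livers. Probes differ in brightness, so such a sum follows its brightest probes, here Hemgn, and 7 of the 9 differences were negative. Of 5 B cell markers 3 fell and 1 rose (summed signal 1.82 to 2.16 in controls, 1.46 to 1.75 in sEV livers), and Ms4a1 was above background on 0 sEV arrays. Of 8 stellate cell markers 4 fell and 0 rose (27.3 to 43.3 against 13.6 to 17.0), among them Col1a1 and Col3a1. Of 8 granulocyte precursor markers 6 rose and 0 fell (10.8 to 21.4 against 40.2 to 74.1), and of 9 Kupffer cell markers 6 rose and 0 fell (101 to 137 against 155 to 173). Of 9 hepatocyte markers 2 rose, Tat and Hnf4a, and 0 fell (5254 to 5768 against 5765 to 6754). Cholangiocyte markers fell in 2 of 7 (9.54 to 15.8 against 8.81 to 9.47). Sinusoidal endothelial markers fell in 1 of 8 (58.5 to 84.4 against 56.1 to 70.3), which is near the share of all genes.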

How the data were processed

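RNA of 6 livers was labelled with Cy3 and hybridised to 1 Agilent array each, per the labels' protocols, and the submitters' processing notes name Agilent Feature Extraction 10.7.1.1 as the reader. The deposited scanner files give a processed intensity per spot. Per the file headers it was background-subtracted and detrended array by array, a surrogate stood in for low signals, and arrays were left unscaled. The deposited value table of the series is on a log2 scale, and each of its columns tracked log2 of its array's processed signal across probes; its direction is that of signal, and the scaling of its arrays is unstated. Treatment labels gave the groups.

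Processed signals were put on the log2 scale and each array's 75th percentile over probes was subtracted. Control spots and outlier flags (91 to 171 spots per array) were left out, spots of 1 probe were averaged, probes marked well above background on 3 or more of the 6 arrays were kept, and the brightest kept probe stood for its gene name. The comparison used limma 3.58.1 (R 4.3.3; lmFit, eBayes, no covariates, Benjamini-Hochberg over all genes, threshold 0.05), a script tested on simulated data. An exact test of 3 against 3 livers cannot go below p = 0.1, and the number of arrays limits precision. Each array is labelled as a separate sample, and the design text names separate mice. Genes carry the names of the array design. The named genes are every name that fits the kinesin rule, up to 4 called members of each other list by the size of the moderated t, probes of 1 kinesin that disagree, and Alb, Apoa1 and Ttr; marker genes and others named beyond that were chosen after their values were seen. The members and lists were chosen with earlier results of these data known. The alternatives were normexp, median and quantile scaling, other filters, means over probes, RefSeq probes, trended and robust variance, array weights, the value table, replicate and slide row blocks, and leaving out each array.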

Additional observations from a re-analysis of the deposited data

How the results depend on the processing

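Of the 13 kinesins followed through 19 alternatives, Kif20a, Kif20b, Kif22, Kif2c and Kif4 kept their direction and call in 19 of 19, with log2 differences from -4.28 to -2.88 for Kif20a, -2.94 to -1.43 for Kif20b, -2.68 to -2.27 for Kif22, -4.06 to -0.81 for Kif2c and -4.09 to -0.86 for Kif4. Kif11 lost its call in 8, Kif3a in 7 and Kif19a in 11. The count of mitotic kinesins called ran from 6 to 9 over the settings that kept all livers, the slide row fits aside. The 9 came without the filter, where 13 genes enter in place of 7. With 1 liver left out the count ran from 5 to 7, and the 7, without sEV liver 1, were 6 lower and Kif23 higher. The median of mitotic kinesins then ran from -2.94 to -2.64. That median was -0.86 with normexp, -2.28 without the filter, where 13 genes enter, and -2.60 with the mean of kept probes. The count of transport kinesins called was 2 with normexp, with trended and robust variance and with RefSeq probes, each time 1 higher and 1 lower. For transport kinesins it was 0 without the filter and 0 to 1 with 1 liver left out. Their median was 0.051 with median scaling and 0.21 with slide row as a block or within the first row, which both set sEV liver 1 alone against the 3 controls.

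Sample numbers are shared between the groups, and deviations of same-numbered livers correlated at 0.018, 0.16 and 0.021, so the numbers were not taken as pairs. With the replicate number as a block, 6 mitotic and 0 transport kinesins were called, and 2210 genes in place of 3313.

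Signs that turned were those of probes or small differences, and for the scaling and left-out livers the cause was not tested. Kif23 was -1.12 with the mean of its probes and -1.92 with its RefSeq probe. Kif24 was -1.12 and -2.51 in the same settings, -0.15 with slide row as a block or within the first row, and between -0.046 (without sEV liver 2) and 0.47 with 1 liver left out. Kif13b was -0.039 with median scaling, -0.00044 with the value table, -0.0099 without control liver 1 and, with 1 liver left out, between -0.050 (sEV liver 1) and 0.12. Among all genes called, 53.3% were higher in the main setting, 36.8% with median scaling, 40.2% without the filter, 35.1% with slide row as a block and 29.3% within the first row. No scaling moved the median of all genes by over 0.1, and leaving out the filter moved it from 0.027 to 0.20. Signal over background limits Kif2c, Kif4 and the kinesins that were not tested, whose sEV readings give a bound or none, and in part Kif11 and Kif20b, above background on 1 and 2 of 3 sEV arrays.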
